A study of Homo sapiens with 8 samples.

Results

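The Hippo pathway was followed through 10 of its genes in Rh41, an established human line grown from an alveolar rhabdomyosarcoma and positive for the PAX3-FOXO1 gene fusion. This tumour of soft tissue has features of skeletal muscle. The genes are the coactivators YAP1 and WWTR1, the DNA-binding partners TEAD1, TEAD2 and TEAD4, the kinases LATS1 and LATS2, and the response genes CTGF, CYR61 and AMOTL2. They were chosen by gene symbol, not by their values, and each symbol was found on 1 of the 60234 rows of the deposited table. There are 4 libraries labelled control and 4 labelled siG9a, made from cells with a knockdown of G9a. This enzyme is the product of EHMT2 and places methyl groups on lysine 9 of histone H3. All 8 come from the same fusion-positive line, and the labels describe the control no further. The series title writes shG9a where the sample labels write siG9a, and the agent used was not settled here.

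Hippo signalling restrains tissue growth. The kinases STK3 and STK4, with the scaffold SAV1, activate LATS1 and LATS2, which phosphorylate the coactivators YAP (from YAP1) and TAZ (from WWTR1) and hold them out of the nucleus. Unphosphorylated YAP and TAZ enter the nucleus and act through TEAD proteins, which bind DNA, to raise genes such as CTGF, CYR61, AMOTL2 and LATS2. LATS2 and AMOTL2 restrain YAP and TAZ in turn, so these genes are both targets and brakes. In skeletal muscle, YAP is active in proliferating progenitor cells, and TEAD proteins also bind the regulatory elements of muscle genes. Transcript levels do not report phosphorylation or location of YAP and TAZ.

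TEAD proteins recognise the core word GGAATG, which reads CATTCC on the other strand, and the upstream sequences of YAP1 and CTGF are shown because they carry it. Sequences are from RefSeq on build GRCh38.p14, run 5′ to 3′ on the gene's strand over the 250 bases before the annotated start, and have the core word in capitals. YAP1 lies on the plus strand (chr11:102110197-102110446) and CTGF, listed there as CCN2, on the minus strand (chr6:131951373-131951622).
YAP1: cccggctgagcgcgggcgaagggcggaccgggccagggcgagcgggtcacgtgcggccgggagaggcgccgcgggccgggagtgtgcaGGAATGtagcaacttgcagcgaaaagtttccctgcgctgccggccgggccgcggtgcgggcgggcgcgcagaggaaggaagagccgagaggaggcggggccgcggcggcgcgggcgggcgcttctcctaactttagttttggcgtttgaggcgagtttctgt
CTGF: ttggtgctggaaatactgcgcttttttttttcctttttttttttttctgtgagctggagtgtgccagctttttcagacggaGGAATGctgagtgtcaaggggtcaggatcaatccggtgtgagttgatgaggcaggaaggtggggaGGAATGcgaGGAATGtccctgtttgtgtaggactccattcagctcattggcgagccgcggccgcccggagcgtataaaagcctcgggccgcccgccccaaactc
The word occurs 3 times before CTGF, starting at -169, -104 and -95 relative to the start, and once before YAP1, at -162. Of the 10 genes, 7 had an entry in the table and 2 of these held the word on either strand, against 11.9% of all 35116 promoters of this length. At least 2 copies, as before CTGF, occurred in 0.94% of them. A match describes letters and not bound sites.

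Libraries held between 1458825 and 1938665 reads assigned to genes, so a gene at 10 CPM (counts scaled to a common library total) rested on fewer than 20 reads. EHMT2 stood at 57.6, 68.1, 87.3 and 88.3 CPM in control replicates 1 to 4 and at 19.6, 35.1, 33.1 and 58.5 CPM in siG9a, lower in each same-numbered pair. The groups overlapped. Its log2 change was -1.10 (limma adjusted p 0.000472 with the replicate number as a block, 0.191 without it). The EHMT2 symbol was on 7 rows, and the row with the highest mean was used. The replicate 3 libraries stood apart in both groups. The summed level of 8 skeletal muscle lineage markers was 272 CPM in control replicate 3 against 1611 to 1783 CPM in the other controls, and 235 CPM in siG9a replicate 3 against 902 to 1307 CPM in the other siG9a libraries. Of the 6 neural markers 3 had a mean of at least 1 CPM, and the sum over all 6 was 9606 and 8935 CPM in the 2 replicate 3 libraries. Replicate 1 stood apart in the other direction, at 184 CPM in control and 223 CPM in siG9a, and replicates 2 and 4 had 1817 to 2951 CPM. Nearly all of this sum came from NEFM and NEFL. Of the 8 fibroblast markers 5 had that mean, with sums of 472, 347, 153 and 335 CPM in control replicates 1 to 4 and 346, 182, 63.9 and 324 CPM in siG9a, lower in all 4 pairs. In a limma fit with the replicate number as a block, 2 of the 5 (COL1A1 and FBLN1) were called lower, where 6.52% of all genes were. Without the block 0 of the 5 were called. THY1, DCN and LUM were near 0. Epithelial markers summed to 75.6 CPM at most, and the leukocyte and endothelial markers PTPRC and CDH5 to 1.37 CPM at most. Of the 4 epithelial markers with a mean of at least 1 CPM, 1 was called lower with the block and 0 without it. This was CDH1, at a log2 change of -1.47 (limma adjusted p 0.0171 with the block, 0.273 without it) on 1 to 31 reads a library. Mitochondrial genes took 9.18%, 5.58%, 4.68% and 4.59% of reads in the controls, in replicate order, and 13.7%, 11.4%, 6.53% and 5.21% after the knockdown, higher in all 4 pairs. Levels are therefore given by replicate number, and changes of the called genes also without replicate 3. The part that these differences have in the Hippo results was not tested, and fewer cells of a type cannot be told apart from less RNA per cell in bulk samples.

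Setting siG9a against control asked which of these transcripts moved with the knockdown. TEAD1 fell, and LATS2 and CYR61 rose, in the fit with the replicate number as a block (the blocked fit). YAP1, WWTR1, TEAD2, TEAD4, LATS1, CTGF and AMOTL2 did not pass the test. Thus 3 of 10 were called in limma, 2 higher and 1 lower, where 11.4% of all 15092 genes tested were called (4.86% higher, 6.52% lower). Without the block limma called 0 of the 10 and 0.0% of all genes. At an unadjusted p under 0.05 it found 1 of the 10, TEAD1, where 12.5% of all genes passed. Without the block edgeR and DESeq2 also called 0 of the 10, against 0.0% and 1.93% of all genes. With the block, edgeR called the same number, 3, and DESeq2 called 2, against 11.3% and 6.42% of all genes. Leaving out replicates 1, 2, 3 or 4 in both groups, limma with the block called 2, 0, 3 and 3 of the 10, against 6.30%, 4.43%, 7.14% and 9.23% of all genes. The called genes were not the same ones each time. They were TEAD1 and CYR61 without replicate 1, and TEAD1, LATS2 and CYR61 without replicate 3. Without replicate 4 they were TEAD1, TEAD2 and LATS2. The 10 genes had a median log2 change of -0.17, beside 0.01 over all genes tested.

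The direction was the same in all 4 pairs for 6 of the 10 genes, against 30.2% of all genes tested (14.9% higher, 15.3% lower). These were LATS1, LATS2 and CYR61 (higher) and YAP1, TEAD1 and AMOTL2 (lower). The 4 siG9a values overlapped the 4 control values for all 10 genes, while 7.32% of all genes had no overlap.

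**Figure D1:**
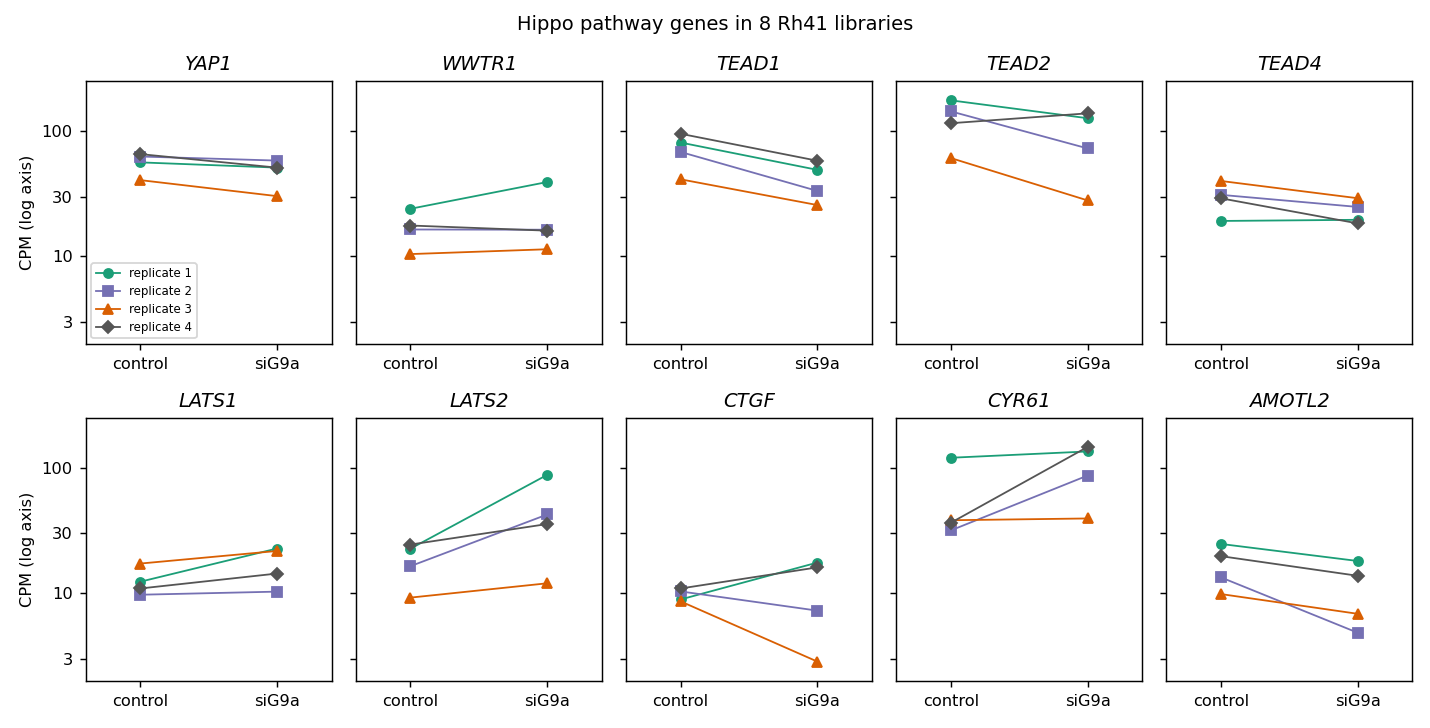
Level of each of the 10 genes in CPM (log axis) in control and siG9a libraries, with a line joining libraries that share a replicate number. TEAD1 lines all descend and LATS2 lines all ascend, and the replicate 3 library is the lowest of its group for YAP1, WWTR1, TEAD1, TEAD2, LATS2 and CTGF in both groups.

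YAP1 (ENSG00000137693), which encodes the main coactivator of the pathway, measured 56.2, 62.6, 40.6 and 65.4 CPM in control replicates 1 to 4 and 51.1, 58.1, 30.3 and 51.04 CPM in siG9a. Each siG9a library was below the control library of the same number, at 0.91, 0.93, 0.75 and 0.78 times its level, and the groups overlapped. The means were 56.2 ± 11.1 and 47.6 ± 12.04 CPM (SD, n = 4 each). The log2 change was -0.25 with a 95% interval from -0.62 to 0.12 with the block, and the limma adjusted p was 0.414 in the blocked and 0.749 in the unblocked fit.

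WWTR1 (ENSG00000018408), which encodes the second coactivator TAZ, measured 24.0, 16.4, 10.45 and 17.6 CPM in control and 39.2, 16.3, 11.4 and 16.1 CPM in siG9a. The replicate 1 siG9a library was the highest of all 8, and replicates 2, 3 and 4 lay within 10% of their control partners. The log2 change was 0.17 (95% interval -0.36 to 0.70 with the block), and limma adjusted p-values were 0.743 (blocked) and 0.909 (unblocked). Its sign turned when replicate 1 was left out in both groups (-0.0057). QuantSeq reads come from transcript ends, so levels of different genes can be set beside each other without a length correction. On that scale YAP1 was 2.34 to 3.88 times the level of WWTR1 in control libraries and 1.30 to 3.56 times in siG9a, lower in each of the 4 pairs.

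TEAD1 (ENSG00000187079) encodes a TEAD factor widely found in muscle. It measured 80.9, 68.1, 41.2 and 95.02 CPM in control replicates 1 to 4 and 49.0, 33.3, 25.7 and 57.9 CPM in siG9a. All 4 pairs were lower, at 0.61, 0.49, 0.62 and 0.61 times control, and the groups overlapped because control replicate 3 lay below the siG9a libraries of replicates 1 and 4. The means were 71.3 ± 22.9 and 41.5 ± 14.6 CPM (SD, n = 4 each). The blocked log2 change was -0.77 ± 0.18 (SE; limma adjusted p 0.0056), and the unblocked SE was 0.32 (adjusted p 0.355). Without replicate 2 the blocked change was -0.69 with an adjusted p of 0.0728, the only pair whose removal ended the call, and without replicate 3 it was -0.81 (adjusted p 0.0223).

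TEAD2 (ENSG00000074219), a TEAD factor known from embryonic and progenitor tissue, had the highest mean level of the 10 genes over the 8 libraries. It measured 175, 143, 60.9 and 115 CPM in control and 126, 72.6, 28.0 and 138 CPM in siG9a. Pairs 1, 2 and 3 were lower and pair 4 was higher, at 0.72, 0.51, 0.46 and 1.20 times control. The blocked log2 change was -0.57 ± 0.19 (SE), and its limma adjusted p of 0.0501 missed the threshold. Without replicate 4 it was -0.85 with an adjusted p of 0.00528, and without replicate 3 it was -0.39 (adjusted p 0.298).

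TEAD4 (ENSG00000197905) encodes a TEAD factor induced by MYOD1 in muscle differentiation. It measured 19.2, 31.0, 40.0 and 29.1 CPM in control and 19.6, 24.8, 29.1 and 18.4 CPM in siG9a. In contrast to TEAD1 and TEAD2, its replicate 3 library was the highest in both groups. Its log2 change was -0.34 (95% interval -0.80 to 0.12 with the block), and limma adjusted p-values were 0.367 (blocked) and 0.684 (unblocked).

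The 4 TEAD genes, with TEAD3 added from the list of other pathway genes, summed to 282, 254, 146 and 255 CPM in control replicates 1 to 4 and to 216, 145, 83.9 and 225 CPM in siG9a. The sum was lower in each pair, and the groups overlapped. TEAD2 held most of it in 5 of the 8 libraries, from 33.3% in siG9a replicate 3 to 62.1% in control replicate 1. TEAD1 held 30.2 ± 4.77% in control and 25.5 ± 3.65% in siG9a (SD, n = 4 each). Its share was lower in pairs 1, 2 and 4 and higher in pair 3, and the difference was not tested. TEAD4 held 27.3% and 34.7% in the 2 replicate 3 libraries and 6.80% to 17.2% in the others. TEAD3 held 1.36% to 9.62%.

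**Figure D2:**
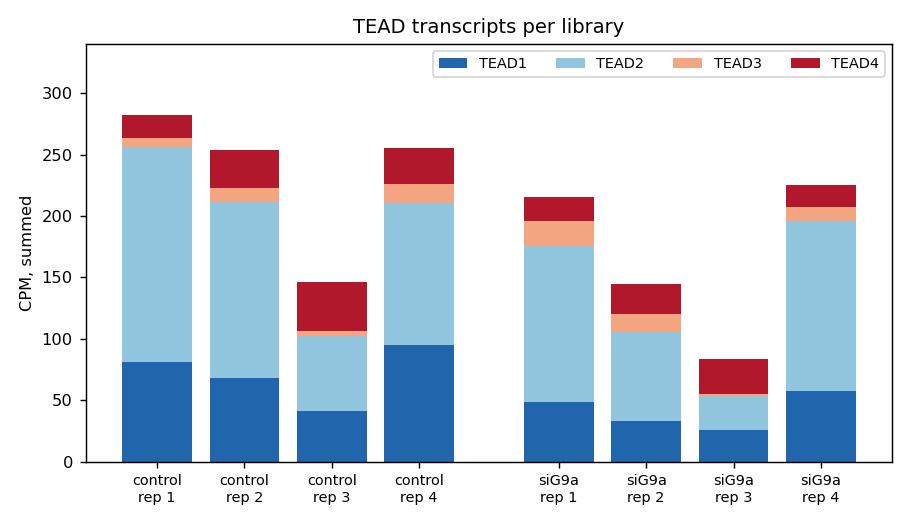
Summed CPM of TEAD1, TEAD2, TEAD3 and TEAD4 in each library, as stacked bars from 0. Each siG9a bar is shorter than the control bar of the same replicate number, and the replicate 3 bars are the shortest of each group with the largest TEAD4 segment.

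LATS1 (ENSG00000131023), one of the kinases that phosphorylate YAP and TAZ, measured 12.3, 9.72, 17.2 and 10.9 CPM in control and 22.7, 10.3, 21.7 and 14.3 CPM in siG9a. All 4 siG9a libraries were above their partners, by 1.84, 1.06, 1.26 and 1.32 times, on 16 to 44 reads a library. Its log2 change was 0.40 (95% interval -0.17 to 0.96 with the block), and limma adjusted p-values were 0.394 (blocked) and 0.684 (unblocked).

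LATS2 (ENSG00000150457), the related kinase that is itself a YAP and TAZ target, measured 22.6, 16.4, 9.22 and 24.4 CPM in control replicates 1 to 4 and 87.7, 42.4, 11.99 and 35.6 CPM in siG9a. The rise was 3.88-fold and 2.58-fold in replicates 1 and 2 and 1.30-fold and 1.46-fold in replicates 3 and 4. Only the siG9a library of replicate 3 lay inside the control range. The means were 18.2 ± 6.88 and 44.4 ± 31.7 CPM (SD, n = 4 each). This gave a blocked log2 change of 1.02 ± 0.25 (SE; limma adjusted p 0.00945), and the unblocked SE was 0.50 (adjusted p 0.436). The call was lost without replicate 1 (0.73, limma adjusted p 0.132) and without replicate 2 (0.93, limma adjusted p 0.0914). Without replicate 3 the change was 1.25 (adjusted p 0.00777).

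In pair 1 the 95% Wilson intervals, which cover counting error only, were 16.1 to 31.8 CPM for LATS2 in control and 75.5 to 101.9 CPM in siG9a. In replicate 3 they were 5.59 to 15.2 and 7.84 to 18.3 CPM, and a difference was not detectable at this depth. The ratio of LATS2 to LATS1 was 1.83, 1.69, 0.54 and 2.24 in control and 3.86, 4.12, 0.55 and 2.48 in siG9a. LATS2 thus had the higher level of the 2 kinases in 6 libraries and LATS1 in both replicate 3 libraries.

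CTGF (ENSG00000118523) encodes a secreted matricellular protein and is a standard YAP and TAZ readout, with the triple core word shown above. It measured 8.91, 10.3, 8.61 and 10.9 CPM in control and 17.5, 7.26, 2.85 and 16.1 CPM in siG9a. The control libraries lay close together, while siG9a replicates 1 and 4 were above all of them and replicates 2 and 3 below all of them. Its log2 change was -0.09 (95% interval -0.82 to 0.64 with the block), and limma adjusted p-values were 0.910 (blocked) and 0.963 (unblocked). The siG9a value of replicate 3 rested on 5 reads (95% Wilson interval 1.22 to 6.68 CPM). In the unblocked fit the change was 0.37 without that library and -0.38 without siG9a replicate 1 instead.

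CYR61 (ENSG00000142871), the other secreted matricellular target, measured 120.0, 31.6, 38.1 and 36.4 CPM in control and 134.6, 86.6, 39.4 and 146.2 CPM in siG9a. Control replicate 1 was more than 3 times as high as each of the other control libraries. All 4 pairs were higher, by 2.74 and 4.02 times in replicates 2 and 4 but by only 1.12 and 1.03 times in replicates 1 and 3. The blocked log2 change was 0.90 ± 0.23 (SE; limma adjusted p 0.0129), and the unblocked SE was 0.46 (adjusted p 0.458). DESeq2 with the block gave an adjusted p of 0.254, and limma lost the call without replicate 2 (0.73, adjusted p 0.141) and without replicate 4 (0.55, adjusted p 0.151). Without replicate 3 the change was 1.19 (adjusted p 0.0076).

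AMOTL2 (ENSG00000114019) encodes an angiomotin-family protein that binds YAP and TAZ in the cytoplasm. It measured 24.7, 13.4, 9.84 and 19.7 CPM in control and 18.1, 4.84, 6.85 and 13.8 CPM in siG9a. All 4 pairs were lower, at 0.73, 0.36, 0.70 and 0.70 times control, on 8 to 38 reads a library. With the block the log2 change of -0.67 ± 0.29 (SE) did not pass the adjusted threshold (limma adjusted p 0.143 blocked, 0.563 unblocked). Of the response genes, CYR61 and LATS2 were called higher, while AMOTL2 (lower in 4 of 4 pairs) and CTGF (higher in 2 pairs and lower in 2) were not called. The differences between these changes were not tested.

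**Figure D3:**
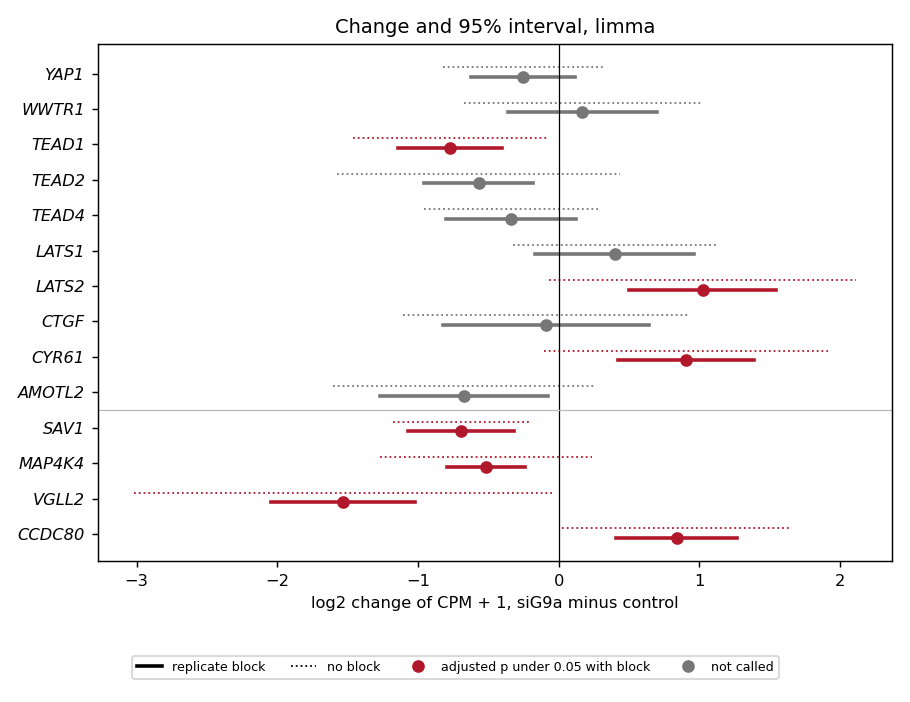
Log2 change of CPM + 1, siG9a minus control, for the 10 genes (above the grey line) and the 4 genes called from the lists of other pathway genes and targets (below it). Solid bars are 95% limma intervals with the replicate block and dotted bars without it. Red marks an adjusted p under 0.05 with the block, which 3 of the 10 genes reached.

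In control the order of mean levels was TEAD2 (124 CPM), TEAD1 (71.3), CYR61 (56.5), YAP1 (56.2), TEAD4 (29.8), LATS2 (18.2), WWTR1 (17.1), AMOTL2 (16.9), LATS1 (12.5) and CTGF (9.69). In siG9a it was CYR61 (102 CPM), TEAD2 (91.3), YAP1 (47.6), LATS2 (44.4), TEAD1 (41.5), TEAD4 (23.0), WWTR1 (20.8), LATS1 (17.3), CTGF (10.9) and AMOTL2 (10.9). Neighbours differed by more than the SD of either gene only for TEAD2 over TEAD1, YAP1 over TEAD4 and TEAD4 over LATS2 in control, and for TEAD1 over TEAD4 in siG9a. The place of CYR61 in control rested on replicate 1, without which its control mean was 35.4 CPM.

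The other genes of the pathway were read from a list of 28 kinases, scaffolds, upstream regulators and TEAD cofactors. Of these 28, all tested, 3 were called lower and 0 higher with the block, and 25 were not called. The 3 are 10.7% of the list, beside 11.4% of all genes called (6.52% lower, 4.86% higher). Without the block limma called 0 of 28, with 3 at an unadjusted p under 0.05 (10.7%, beside 12.5% of all genes). The median log2 change was 0.01, as over all genes. The direction was the same in all 4 pairs for 12 of the 28, 5 higher and 7 lower, against 30.2% of all genes tested (14.9% higher, 15.3% lower).

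The 3 called genes were VGLL2, SAV1 and MAP4K4. VGLL2, a vestigial-like cofactor that binds TEAD proteins in skeletal muscle, measured 108, 116, 14.1 and 148 CPM in control and 24.8, 19.4, 10.3 and 68.3 CPM in siG9a. It fell by 1.53 ± 0.25 (SE) on the log2 scale (limma adjusted p 0.000219 blocked, 0.387 unblocked), and it remained called without any single replicate number (-1.90 without replicate 3, adjusted p 6.51e-05). Of the 8 muscle lineage markers, 4 (DES, CHRNA1, CDH15 and FGFR4) were called lower with the block, where 6.52% of all genes were, and 0 without it. The 8 had a median log2 change of -0.62, and their sum was lower in siG9a in all 4 pairs. MYOD1 (-0.03), PAX3 (-0.08), CHRND (0.21) and MYOG (-0.65) were not called. The part of these markers in the VGLL2 result was not tested.

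SAV1, the scaffold of the STK3 and STK4 kinases, measured 53.5, 55.3, 63.3 and 75.8 CPM in control and 29.9, 38.1, 41.7 and 41.9 CPM in siG9a. It was the only gene of the list of 28 whose groups did not overlap, where 7.32% of all genes had none. It fell by 0.69 ± 0.18 (SE) on the log2 scale (limma adjusted p 0.0140 blocked, 0.242 unblocked). Without replicate 1, 2 or 3 the change was -0.65, -0.75 and -0.73, with an adjusted p of 0.0579, 0.0583 and 0.0523. MAP4K4, a kinase that can act on LATS proteins in parallel to STK3 and STK4, fell from 728 ± 292 to 497 ± 174 CPM (SD, n = 4 each) and was lower in 4 of 4 pairs. Its log2 change was -0.52 ± 0.13 (SE) (limma adjusted p 0.0130 blocked, 0.585 unblocked), and the call was lost without replicate 1 (-0.50, adjusted p 0.0538) or replicate 2 (-0.49, adjusted p 0.104). Without replicate 3 the change was -0.58 (adjusted p 0.0436).

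A list of 18 further YAP and TAZ target genes from a published signature had 15 members with a mean of at least 1 CPM. FOXF2, NT5E and NUAK2 were below it. Of the 15, 1 was called with the block, as higher, and the median log2 change was -0.22. This 1 gene is 6.67% of the 15, beside 11.4% of all genes called (4.86% higher, 6.52% lower). Without the block limma called 0, with 1 at an unadjusted p under 0.05 (6.67%, beside 12.5% of all genes). The summed level of the 18 genes was 836, 699, 388 and 714 CPM in control and 775, 662, 377 and 698 CPM in siG9a. Each siG9a library was slightly below its partner. The Hippo genes described above were taken out of the signature, so this sum holds neither CYR61 and LATS2 (called higher) nor CTGF and AMOTL2. The sum over the whole signature was not taken. The called gene was CCDC80, which encodes a secreted matrix protein. It measured 103, 45.6, 56.0 and 44.7 CPM in control and 158, 176, 62.2 and 71.1 CPM in siG9a, higher in 4 of 4 pairs. Its log2 change was 0.84 ± 0.21 (SE) (limma adjusted p 0.00945 blocked, 0.387 unblocked), and without replicate 2 it was 0.48 (adjusted p 0.209). Without replicate 3 it was 1.07 (adjusted p 0.00834).

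The Hippo genes also differed by replicate number. On the log2(CPM + 1) scale, control replicate 3 differed from the mean of the other controls by -1.21 for TEAD2, -1.10 for LATS2, -0.95 for TEAD1, -0.86 for AMOTL2, -0.81 for WWTR1 and -0.58 for YAP1. The same differences in siG9a were -1.92, -2.001, -0.80, -0.59, -0.88 and -0.80. TEAD4 and LATS1 were shifted upwards instead, by 0.61 each in control and by 0.47 and 0.50 in siG9a. CTGF and CYR61 were shifted by -0.20 and -0.43 in control and by -1.84 and -1.58 in siG9a, and whether the groups differ in this was not tested. Replicate 3 was the lowest library of both groups for 6 of the 10 genes, against 19.8% of all genes tested, and the highest in both for 1, TEAD4, against 20.1%.

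**Figure D4:**
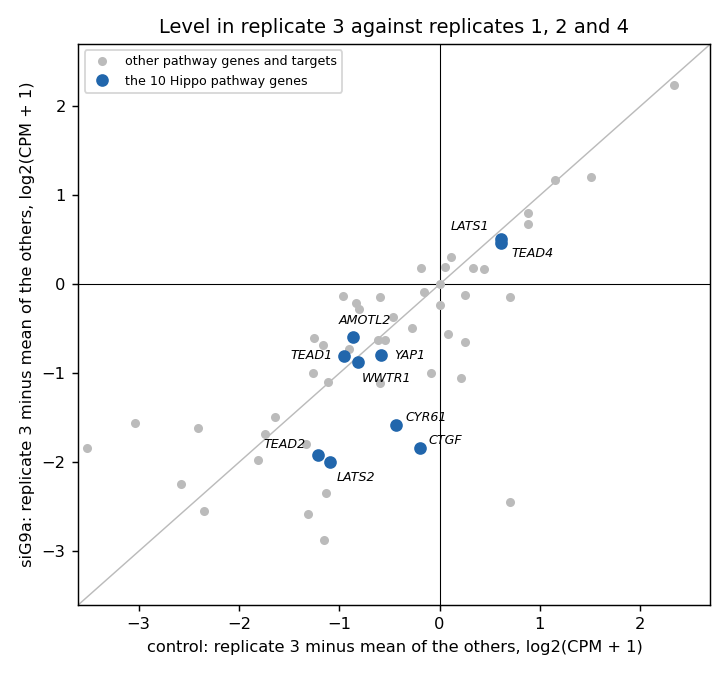
Difference of replicate 3 from the mean of replicates 1, 2 and 4 in log2(CPM + 1), in control (horizontal) and in siG9a (vertical), for the 10 genes (blue) and the genes of both other lists (grey). The diagonal marks equal differences. TEAD4 and LATS1 lie above 0 on both axes and the other 8 genes below 0 on both.

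The genes whose levels followed YAP1 most closely over the 8 libraries, among 8897 others with a mean of at least 10 CPM, were MED13 (Pearson r of 0.98), REV1 (0.97) and JMJD1C (0.97). For WWTR1 they were SAP130 (0.98), MEX3C (0.97) and DYNLL1 (0.97). These are the highest of many correlations over libraries that share the replicate 3 shift and their totals, and they describe likeness only. YAP1 and WWTR1 had an r of 0.47 with each other. The extremes among all pairs of the 10 Hippo genes, picked after they were seen, were TEAD1 with AMOTL2 (0.86), TEAD1 with TEAD2 (0.85) and TEAD4 with CYR61 (-0.91).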

How the data were processed

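Total RNA from 8 Rh41 samples, 4 per group, was made into QuantSeq 3′ libraries and sequenced single-end, per the labels' protocols, and the series' design text calls the replicates biological. The authors deposited 1 table of CPM values to 2 decimals. The submitters' processing notes name FastQC 0.11.8, Trim Galore, STAR 2.5.0a, HTSeq 0.8.0 and edgeR 3.28, and both GRCh38 and hg19, so the build behind the counts and the strand setting are not given in the sources used here. Within 0.006 CPM, 100% of non-zero values were whole multiples of 1 read, so reads were recovered. CPM is relative to each library's total.

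Log2(CPM + 1) values were tested with limma (version 3.58.1, R version 4.3.3; trend, two-sided) for the 15092 genes that averaged 1 CPM or more, with Benjamini-Hochberg adjustment over all of them and a threshold of 0.05. Fold changes on this scale understate low genes. Same-numbered libraries deviated together from their group means (r across genes of 0.50, 0.10, 0.67 and 0.13 for replicates 1 to 4, each above 0.1), which the replicate numbers in the sample titles alone define. Control replicate 2 correlated more with siG9a replicate 4 (0.14) than with its own number, so the numbers stand out for replicates 1 and 3 only. The fit with that number as a block is therefore given beside the fit without it, which was the main test. edgeR 4.0.16 and DESeq2 1.42.0 on recovered reads were alternatives. The limma, edgeR and DESeq2 fits, with and without the block, were also run on simulated reads, and the other steps were not.

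The Hippo genes, the lists and the tests were chosen with earlier results of these data known. Named genes are the 10 Hippo genes, those called with the block in the other 2 lists, EHMT2 as the knocked-down gene, and the 3 most like YAP1 and WWTR1, which were not run under the alternatives. In GENCODE 29, 8 of the 10 genes overlap another gene. Where the overlapping gene had a value, its own mean was 1.42 CPM at most. AL358852.1, the only gene overlapping LATS1, and MIR6827, which overlaps AMOTL2, had no value. SAV1 overlaps RN7SL452P (mean 6.55 CPM).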

Additional observations from a re-analysis of the deposited data

Results flagged for a closer look

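CYR61 in control replicate 1 measured 120.0 CPM (119.96 as deposited), against 31.6 to 38.1 CPM in the other 3 control libraries. Its gap to the next library was 0.93 of the range of the group, above Dixon's 95% critical value for 4 samples. Of 30 groups of 4 libraries examined for the 10 Hippo genes, the 4 called from the lists and EHMT2 this was the only case, where chance gives about 1.5. Without replicate 1 in both groups, CYR61 had a log2 change of 1.15 in the blocked fit (limma adjusted p 0.0102).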

How the results depend on the processing

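Without the block, limma called 0 genes and 0 of the 10 Hippo genes. All genes called were 18 with no filter and 291 in DESeq2. With the replicate block they were 1717 in limma, 1711 in edgeR, 969 in DESeq2, 1710 with a pseudocount of 5 and 1693 with median-ratio scaling, and 3, 3, 2, 3 and 3 of the 10 Hippo genes were called in the same fits. Leaving out 1 library at a time without the block gave 0 to 300 genes (300 without control replicate 3) and 0 Hippo genes. Leaving out a replicate number with the block gave 951, 668, 1078 and 1393 genes for replicates 1 to 4 and 2, 0, 3 and 3 Hippo genes. The 27 alternatives were set against limma without the block, the main fit, for 15 genes. These were the 10 Hippo genes, the 4 called from the lists and EHMT2. The main fit called 0 genes, so the 332 of 405 values that kept direction and side of the threshold were all uncalled. Another 62 passed it newly, all in blocked fits except VGLL2 without control replicate 3. The other 11 turned sign, all for WWTR1 and CTGF. WWTR1 was -0.04 without control replicate 3, -0.18 without siG9a replicate 1 and -0.0057 without replicate 1 with the block, and reached 0.39 when siG9a replicate 3 was left out. CTGF was 0.18 in edgeR, 0.16 with DESeq2 size factors in edgeR, 0.16 in DESeq2 and 0.044 in edgeR with the block. It was 0.0046 without siG9a replicate 2, 0.37 without siG9a replicate 3, 0.035 without replicate 2 and 0.32 without replicate 3, both with the block, and went down to -0.38 without siG9a replicate 1 and to -0.42 without replicate 1 with the block. The cause of these changes was not tested. CTGF, LATS1 and AMOTL2 rested on 5 to 44 reads a library, which limits what could be detected.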

Other observations

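WWC1, a membrane-associated activator of LATS kinases, was singled out after its values were seen. It measured 1.37, 16.4, 38.7 and 10.9 CPM in control replicates 1 to 4 and 2.58, 17.6, 44.5 and 12.6 CPM in siG9a, so it varied widely with the replicate number in both groups. Its log2 change between groups was 0.27 (limma adjusted p 0.611 in the blocked fit). The neurofilament gene NEFM measured 156, 1562, 8046 and 1737 CPM in control and 182, 2498, 7625 and 1597 CPM in siG9a, lowest in replicate 1 and highest in replicate 3 like WWC1. VGLL3, another TEAD cofactor also chosen after its values were seen, measured 250.2, 207, 44.9 and 389 CPM in control and 306, 175, 57.1 and 380.2 CPM in siG9a. The siG9a libraries were at 1.22, 0.84, 1.27 and 0.98 times their control partners, and VGLL3 was not called (log2 change 0.09, limma adjusted p 0.767 blocked).

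EHMT2 in siG9a was 0.34, 0.52, 0.38 and 0.66 times its control partner in replicates 1 to 4. LATS2 in the same pairs was 3.88, 2.58, 1.30 and 1.46 times control, and CYR61 1.12, 2.74, 1.03 and 4.02 times. With 4 pairs no relation between these values was tested.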
